A study of Mus musculus with 6 samples.

Results

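The high mobility group (HMG) genes were followed between the mesenchymal stem cell (MSC) and transit amplifying cell (TAC) regions of the mouse incisor, a tooth that grows throughout life. The group was taken by gene symbol and held 9 of the 23718 genes listed in the table. These were the HMG-box genes Hmgb1, Hmgb2 and Hmgb3, the AT-hook genes Hmga1 and Hmga2, and the nucleosome-binding genes Hmgn1, Hmgn2, Hmgn3 and Hmgn5. Hmgb3 was chosen by its signal in TAC against MSC, that is, for its difference between TAC and MSC in these same libraries, so its contrast is given below as a description with no test. The other 8 were added by family name.

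HMG proteins are abundant non-histone proteins of chromatin. HMGB proteins bend DNA through paired HMG boxes and, when released from cells, can also act as danger signals. HMGA proteins bind the minor groove of AT-rich DNA through short AT hooks, and HMGN proteins bind the nucleosome core and compete there with linker histones. Many members are high in embryonic and dividing cells and lower in differentiated tissue, and Hmga2 is a target of the let-7 microRNAs.

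The libraries came from incisors of 1-month-old mice, with 3 MSC and 3 TAC libraries numbered 1 to 3 in each group. MSC tissue came from Gli1-CreER;tdT mice and TAC tissue from Axin2-CreER;tdT mice, in which tamoxifen lets the Cre driven by Gli1 or Axin2 switch on a red reporter (in the methods, a tdTomato allele at Rosa26 and Cre fused to ERT2). Mice of both groups received tamoxifen 1 day before collection, and labelled cells of the incisor were cut from frozen sections of the mandible by laser capture. The strain label was C57BL/6, whereas the methods of the study describe a mixed background. Because the genotypes differ, the driver and the region captured cannot be told apart. The methods give 3 mice per group, but the labels do not tie a library to an animal, so p-values measure the spread between libraries. In such bulk samples, fewer cells of a type and less RNA per cell cannot be told apart.

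Values were a normalized signal, scaled by library and not by gene length. Estimated reads numbered 20203159 to 25567244 in replicates 1 and 2 of both groups, 59793645 in MSC replicate 3 and 108156380 in TAC replicate 3. The replicate 3 libraries stood apart in other ways too. Mitochondrial ribosomal RNA made up 8.28% to 9.07% of the reads in replicates 1 and 2 and 0.112% to 0.236% in replicate 3. Between 6.89% and 8.36% of the listed genes had no read in replicates 1 and 2, while in replicate 3 this was 43.1% of genes for MSC and 28.3% for TAC. Over genes with reads, the chi-square per degree of freedom between replicates 1 and 2 was 10.3 in MSC and 8.32 in TAC, and between either of them and replicate 3 it was 1405.0 to 1767.0. The changes of the HMG genes are therefore given over all libraries and by library set. Of the label genes, Gli1 lay between 244.9 and 421.6 in MSC and between 141.0 and 395.9 in TAC, and Axin2 between 12 and 58.3 in MSC and between 34.1 and 63.9 in TAC, so that their ranges overlapped. Within replicate numbers 1 to 3 the ratio of TAC to MSC was 0.596, 0.576 and 0.939 for Gli1 and 0.974, 1.33 and 2.84 for Axin2. For Mki67, a marker of dividing cells, it was 4.33, 4.84 and 2.94 (limma adjusted p = 0.361, 0.0442 with the replicate number as a block and 1.21e-08 to 1 over the alternatives). The signal of Mki67 was 136.9, 130.1 and 41.5 in MSC and 592.9, 629.7 and 122.0 in TAC, so that its ranges overlapped as well. Markers of dental mesenchyme were present in every library, with summed signals of 3010.9 to 11391.8 in MSC and 9126.9 to 12958.3 in TAC. Most of each sum was Col1a1 (1553.5 to 9608.7 in MSC and 8030.5 to 11167.2 in TAC). Single markers went both ways, with log2 fold changes of 1.49 for Msx2 and -1.45 for Pax9.

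All 9 HMG genes were detected in every library, with 193 to 85704 estimated reads each. Without Hmgb3 they made up 0.0935%, 0.0929% and 0.126% of protein-coding reads in the MSC libraries and 0.215%, 0.225% and 0.243% in the TAC libraries, and the groups did not overlap. All 9 also passed the filter on low values. Of the 8 genes besides Hmgb3, 5 (Hmgb1, Hmgb2, Hmgn1, Hmgn2 and Hmgn3) had every TAC library above every MSC library, none had the reverse, and 3 (Hmga1, Hmga2 and Hmgn5) overlapped. Such separation toward TAC was seen in 12.3% of the 15391 genes tested. The median log2 fold change of these 8 genes was 0.94, beside 0.03 over all genes tested. Replicates 1 and 2 gave 1.02 and replicate 3 gave 0.97, where all genes had medians of -0.05 and 0.04.

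No gene of the 8 passed an adjusted p of 0.05 in limma, and none did with limma voom. At that threshold 0.422% of all genes tested passed in limma in either direction and 0.039% passed as higher in TAC. Of all genes, voom called 23 in either direction and 0 as higher in TAC, so it made no call toward TAC for any gene. At an unadjusted p under 0.05, 4 of the 8 were higher in TAC (Hmgb1, Hmgb2, Hmgn1 and Hmgn2), where 5.42% of all genes were. With voom 5 were, the fifth being Hmga1, where 13.3% of all genes were. With the replicate number as a block, Hmgn2 alone of the 8 passed, and 0.604% of all genes passed as higher in TAC.

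**Figure D1:**
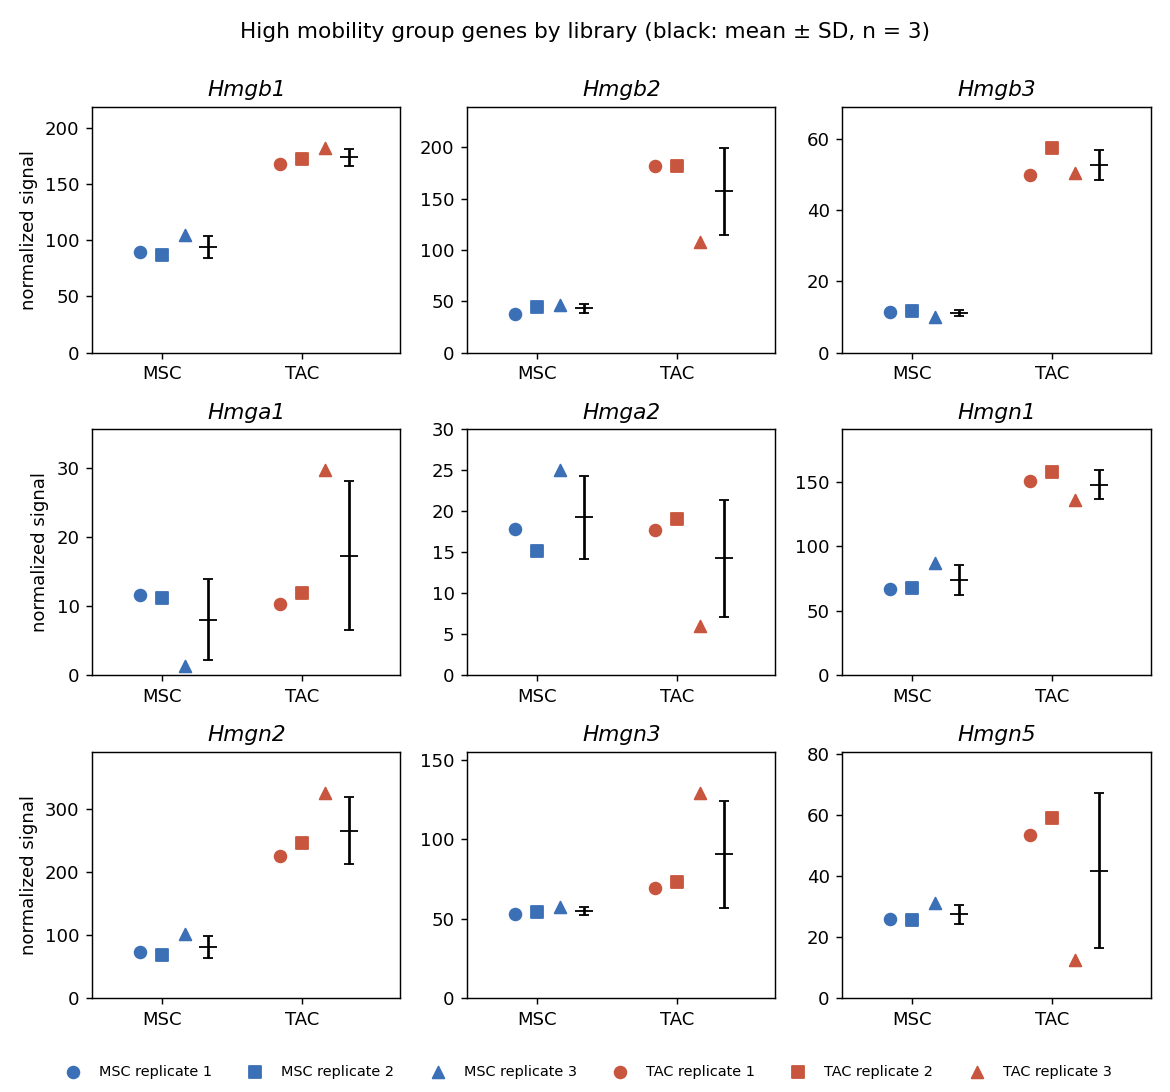
Normalized signal of the 9 HMG genes in each of the 6 libraries, with MSC in blue, TAC in red and a symbol for each replicate number, and the mean ± SD (n = 3) in black on axes that start at 0. TAC libraries sit above all MSC libraries for Hmgb1, Hmgb2, Hmgb3, Hmgn1, Hmgn2 and Hmgn3, while for Hmga1, Hmga2 and Hmgn5 the replicate 3 libraries (triangles) lie apart from replicates 1 and 2.

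The HMGB genes were considered first. Hmgb3, the HMGB gene best known from embryos and blood-forming stem cells, lies on chromosome X (71555918 to 71560676, plus strand, mm10). Its signal was 11.5, 11.6 and 10.1 in MSC replicates 1 to 3 and 49.9, 57.5 and 50.4 in TAC replicates 1 to 3. The 3 MSC libraries were nearly level, and the lowest TAC library was far above the highest MSC library. The means were 11.1 ± 0.825 in MSC and 52.6 ± 4.22 in TAC (SD, n = 3), a ratio of 4.75. Within replicate numbers the ratios were 4.34, 4.96 and 4.99. The log2 fold change was 2.15 with a standard error (SE) of 0.27. Replicates 1 and 2 gave 2.12 and replicate 3 gave 2.21, a difference of 0.09 with an SE of 0.19. On this scale it was the largest log2 fold change of the 9 genes, which follows the choice of Hmgb3, while with voom Hmga1 gave 3.06 and Hmgb3 2.30.

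Hmgb2, which is linked to proliferation and mitotic chromatin, lies on chromosome 8 (57511907 to 57515999, plus strand). It measured 38, 44.8 and 46.7 in MSC and 181.5, 181.7 and 108.0 in TAC. All TAC libraries were above all MSC libraries, with TAC replicate 3 well below the other two. The log2 fold change was 1.80 (SE 0.30, 95% interval 1.10 to 2.51, limma adjusted p = 0.0764), and the alternatives gave adjusted p-values from 2.13e-07 to 1. By library set it was 2.11 (replicates 1 and 2) and 1.19 (replicate 3), and this difference of -0.92 passed (SE 0.14, limma adjusted p = 0.000886). A difference of this kind was called in 57.2% of all genes tested. Since replicate 3 is 1 library per group, the error of this and the later differences rests on the narrow spread between replicates 1 and 2, and a call does not show that another library like replicate 3 would differ.

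Hmgb1, the most widely expressed family member and the one studied as an extracellular danger signal, lies on chromosome 5 (149046702 to 149184489, minus strand). It gave 89.9, 87.2 and 105.0 in MSC and 167.5, 172.1 and 182.3 in TAC. The groups did not overlap and each was narrow, at 94.1 ± 9.6 and 174.0 ± 7.61 (SD, n = 3). On the log2 scale this was a change of 0.88 (SE 0.25, 95% interval 0.30 to 1.47, unadjusted p = 0.0087, limma adjusted p = 0.214), with adjusted p-values from 1.77e-06 to 1 over the alternatives. By library set, replicates 1 and 2 before replicate 3 as in all later pairs, it was 0.93 and 0.79, and this difference of -0.14 did not pass (SE 0.09, limma adjusted p = 0.193).

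Because a longer transcript collects more reads, the HMGB genes were set side by side only after division by transcript length. Hmgb1 took 60.1%, 56.4% and 61.1% of the HMGB signal per kb in the MSC libraries and 37.7%, 37.3% and 47.9% in the TAC libraries. Hmgb3 took 12.5%, 12.2% and 9.58% in MSC and 18.3%, 20.3% and 21.5% in TAC. Shares sum to the whole of the family, so a larger part for one gene leaves less for the others, and the share of Hmgb3 follows the values it was chosen by. The signal of Hmgb1 itself was higher in TAC. Hmgb2 took 27.4%, 31.3% and 29.3% in MSC and 44.1%, 42.5% and 30.6% in TAC, where its share in TAC replicate 3 fell within the MSC range. Within a library, the ratio of Hmgb3 to Hmgb1 per kb was 0.157 to 0.216 in MSC and 0.45 to 0.544 in TAC. The summed HMGB signal per kb was 52.8 to 60.6 in MSC and 134.3 to 162.7 in TAC. This sum and the ratio to Hmgb1 include Hmgb3, so both follow in part the values it was chosen by.

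**Figure D2:**
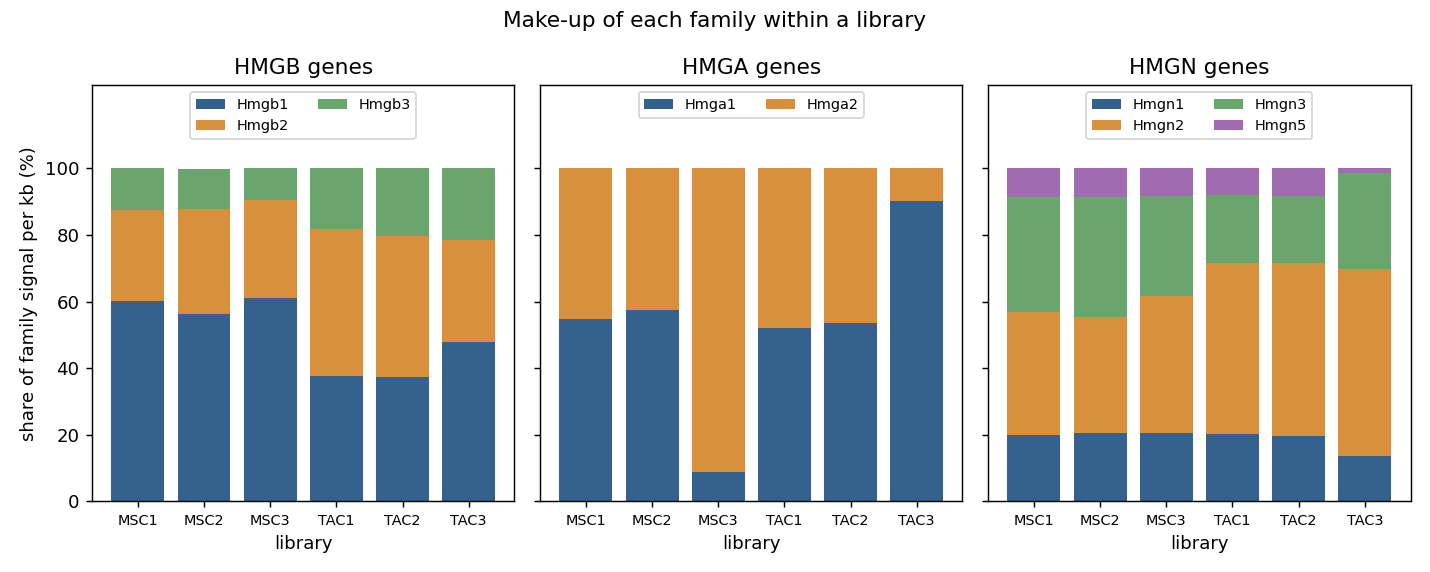
Share of each gene in the signal per kb of its family (%, y axis), stacked for the HMGB, HMGA and HMGN genes in each of the 6 libraries (x axis). Hmgb1 takes 56.4% to 61.1% of the HMGB signal in MSC and 37.3% to 47.9% in TAC, and the HMGA bars of MSC3 and TAC3 are turned against each other, with Hmga1 at 8.75% and 90.1%.

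The promoters of these genes are shown because 3 of the 4 HMGB windows held repeated CCAAT boxes, a word bound by NF-Y that is common in promoters of cell cycle genes. Sequences were the 250 bases before each start in the RefSeq promoter table (GRCm38.p6), in which 8 of the 9 genes were found, with 10 windows in all. They are printed in the direction of the gene. Capitals mark CCAAT (or ATTGG on the other strand), the cell cycle homology words TTTGAA and TTCGAA (or their reverse complements), and the E2F words TTTCCCGC, TTTGGCGC, TTTGCCGC and TTTCGCGC. No marked word overlapped another in the printed windows. Hmgb2 is at chr8:57511593-57511842 (plus strand), Hmgb3 at chrX:71555667-71555916 (plus strand) and the distal of 2 Hmgb1 starts at chr5:149053058-149053307 (minus strand). The Hmgn2 window, at chr4:133967992-133968241 (minus strand), is given as one with no marked word.
Hmgb2: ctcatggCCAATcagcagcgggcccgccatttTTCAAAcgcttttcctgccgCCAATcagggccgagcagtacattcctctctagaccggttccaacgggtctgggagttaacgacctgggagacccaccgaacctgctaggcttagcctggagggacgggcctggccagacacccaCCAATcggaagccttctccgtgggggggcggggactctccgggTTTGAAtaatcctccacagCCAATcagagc
Hmgb3: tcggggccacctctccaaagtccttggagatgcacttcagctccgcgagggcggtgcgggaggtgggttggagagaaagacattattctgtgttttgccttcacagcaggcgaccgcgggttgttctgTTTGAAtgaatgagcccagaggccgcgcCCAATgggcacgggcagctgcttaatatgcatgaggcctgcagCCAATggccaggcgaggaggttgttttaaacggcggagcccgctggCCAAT
Hmgb1 distal: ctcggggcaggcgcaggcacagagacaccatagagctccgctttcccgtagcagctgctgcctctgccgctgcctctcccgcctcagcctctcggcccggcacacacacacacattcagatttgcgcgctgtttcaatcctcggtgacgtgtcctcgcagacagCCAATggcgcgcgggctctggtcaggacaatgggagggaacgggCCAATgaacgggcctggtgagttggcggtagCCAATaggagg
Hmgn2: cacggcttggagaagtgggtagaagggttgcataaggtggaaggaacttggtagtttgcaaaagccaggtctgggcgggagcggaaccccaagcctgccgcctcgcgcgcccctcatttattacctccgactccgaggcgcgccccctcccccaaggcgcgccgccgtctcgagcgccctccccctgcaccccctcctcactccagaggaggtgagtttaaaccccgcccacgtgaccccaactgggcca

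The Hmgb2 window held 4 CCAAT words and 2 cell cycle homology words, the Hmgb3 window 3 and 1, and the distal Hmgb1 window 3 and none. Of all 32851 windows in the table, 33.8% held CCAAT, 2.79% held at least 3 of them and 0.84% at least 4. The cell cycle homology words were in 17.1% of windows and together with at least 3 CCAAT words in 0.451%. The cutoffs of 3 and 4 are the numbers held by these HMGB windows, so the shares are descriptions and not a test. Hmgn1 and Hmgn5 each had 2 CCAAT words, a number reached in 10.1% of windows. The second Hmgb1 start, both Hmga1 windows, Hmga2 and Hmgn2 had none, so that Hmgn2, with a log2 fold change of 1.71, had neither word. No E2F word lay in any of the 10 windows, as in most windows of the table, where 1.86% held one. These are matches of letters and do not show binding.

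The HMGN genes code for small proteins that loosen the compaction of nucleosome arrays. Hmgn2, on chromosome 4 (133964738 to 133968650, minus strand), had the highest level per kb of the HMG genes in the means of both groups. Its signal was 72.8, 67.9 and 101.1 in MSC and 225.4, 245.5 and 324.9 in TAC. The groups were well apart, and replicate 3 was the highest library in each. The change on the log2 scale was 1.71 (SE 0.30, 95% interval 1.01 to 2.41, limma adjusted p = 0.0841). With the replicate block Hmgn2 passed (limma adjusted p = 0.0323), within a range of 1.68e-07 to 1 over the alternatives. Both library sets gave like values, 1.73 in replicates 1 and 2 and 1.68 in replicate 3 (difference -0.05, SE 0.10, limma adjusted p = 0.686).

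Hmgn1, the closest relative of Hmgn2, lies on chromosome 16 (96120618 to 96127729, minus strand). It measured 67.1, 67.8 and 87.1 in MSC and 150.6, 157.5 and 135.8 in TAC. Every TAC library was above every MSC library, and the gap was narrowest in replicate 3. On the log2 scale TAC exceeded MSC by 1.00 (SE 0.26, 95% interval 0.40 to 1.60, unadjusted p = 0.00542, limma adjusted p = 0.18, range 7.25e-07 to 1 over the alternatives). By library set it was 1.18 and 0.63, a called difference of -0.54 (SE 0.09, limma adjusted p = 0.00155).

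Hmgn3, a member found in brain and endocrine tissue, lies on chromosome 9 (83109948 to 83146685, minus strand). It gave 52.9, 54 and 57.5 in MSC and 69, 73.2 and 129.0 in TAC. The MSC libraries were level, and TAC replicate 3 stood far above the other two. Its log2 fold change of 0.65 (SE 0.31, 95% interval -0.08 to 1.39) did not pass, at a limma adjusted p of 0.475. The library sets gave 0.40 and 1.15, and that difference of 0.75 was called (SE 0.11, limma adjusted p = 0.000817).

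Hmgn5, the HMGN gene with a long acidic tail, lies on chromosome X (109004534 to 109013404, minus strand). Its signal was 25.8, 25.4 and 31 in MSC and 53.4, 59.1 and 12.6 in TAC. TAC replicates 1 and 2 were the highest of the 6 libraries and TAC replicate 3 the lowest. Over all libraries the log2 fold change was 0.32 (SE 0.57, 95% interval -1.02 to 1.67, limma adjusted p = 0.89). By library set it was 1.10 and -1.24, a called difference of -2.34 (SE 0.17, limma adjusted p = 3.27e-05).

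Within the HMGN genes, Hmgn2 took 37%, 35.1% and 41.1% of the signal per kb in the MSC libraries and 51.6%, 52.2% and 56.2% in the TAC libraries, with no overlap. Hmgn3 took 34.6%, 35.9% and 30.1% in MSC and 20.3%, 20% and 28.7% in TAC, also with no overlap but by a small margin in replicate 3. Hmgn1 stayed between 19.5% and 20.6% in 5 libraries and was 13.7% in TAC replicate 3. Hmgn5 stayed between 8% and 8.6% in the same 5 libraries and was 1.42% in TAC replicate 3. The ratio of Hmgn2 to Hmgn1 per kb was 1.72 to 1.99 in MSC and 2.57 to 4.11 in TAC.

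The HMGA genes did not separate MSC from TAC. Hmga1, an architectural factor of proliferating and embryonic cells, lies on chromosome 17 (27556620 to 27563674, plus strand). It measured 11.6, 11.2 and 1.29 in MSC and 10.3, 11.9 and 29.6 in TAC. Replicates 1 and 2 of both groups were level, MSC replicate 3 was the lowest library and TAC replicate 3 the highest. The log2 fold change was 1.22 (SE 0.77, 95% interval -0.59 to 3.04, limma adjusted p = 0.604). The library sets gave -0.04 and 3.74, the second with a ratio of 22.9, and the difference of 3.77 was called (SE 0.28, limma adjusted p = 3.83e-05).

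Hmga2, the let-7 target known from embryonic mesenchyme and from stem cells, lies on chromosome 10 (120361275 to 120476469, minus strand). It gave 17.8, 15.2 and 25 in MSC and 17.7, 19.1 and 6.05 in TAC. Replicates 1 and 2 again overlapped, while in replicate 3 the MSC library was the highest and the TAC library the lowest of the 6. Its log2 fold change was -0.53 (SE 0.49, 95% interval -1.68 to 0.62, limma adjusted p = 0.731). By library set it was 0.15 and -1.88, a called difference of -2.03 (SE 0.24, limma adjusted p = 0.000237). Within a library, the ratio of Hmga1 to Hmga2 per kb was 1.08 to 1.36 in replicates 1 and 2 of both groups, 0.0958 in MSC replicate 3 and 9.06 in TAC replicate 3.

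Of the 8 genes, 6 had a called difference between library sets, and 3 of these (Hmga1, Hmga2 and Hmgn5) also had changes of opposite sign. For Hmga1 and Hmga2 the change in replicates 1 and 2 was small (-0.04 and 0.15), so that only Hmgn5 clearly changed in both directions. Among all genes tested 57.2% had a called difference and 27.8% had one with opposite signs. The depth, the share of mitochondrial ribosomal RNA and the number of genes without a read moved with the same split. Median log2 fold changes by library set also differed for markers of dental epithelium (0.60 and 2.80) and of odontoblasts (-0.02 and 1.81). The part of all these in the differences of the HMG genes was not tested.

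**Figure D3:**
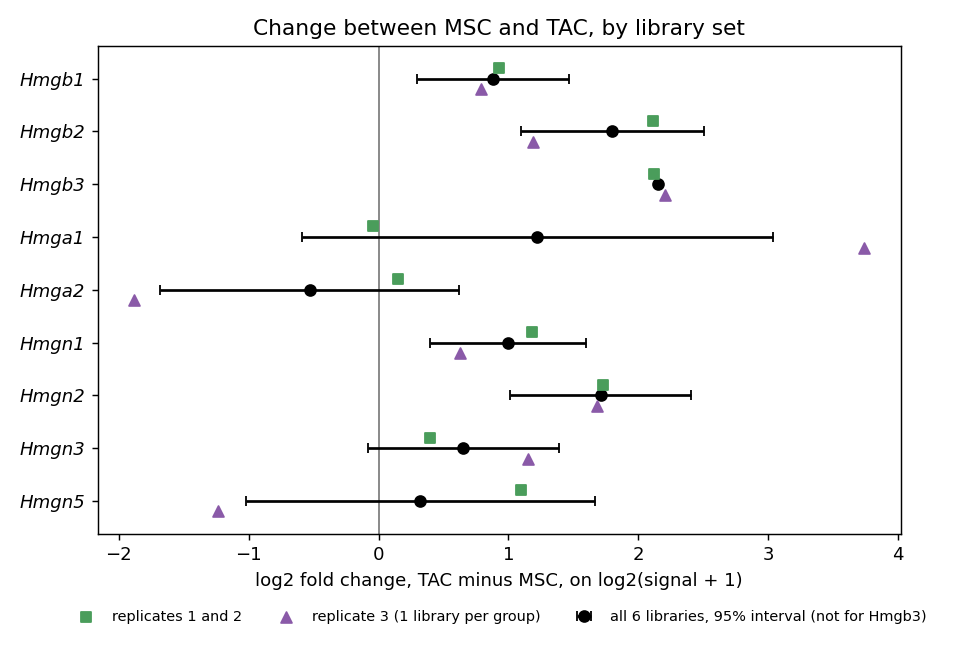
Log2 fold change of each HMG gene (x axis, TAC minus MSC, on log2(signal + 1)) over all 6 libraries (black, with its 95% interval for all but Hmgb3), in replicates 1 and 2 (green squares) and in replicate 3, which has 1 library per group (purple triangles). The 3 values lie close together for Hmgb1, Hmgb3 and Hmgn2, and on opposite sides of 0 for Hmga1 (-0.04 and 3.74), Hmga2 (0.15 and -1.88) and Hmgn5 (1.10 and -1.24).

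Levels could be ranked between genes per kb of transcript. In MSC the order of the means was Hmgn2 (63.7 ± 14.2), Hmgn3 (55.8 ± 2.44), Hmgn1 (34.1 ± 5.23), Hmgb1 (33.1 ± 3.38), Hmgb2 (16.4 ± 1.73), Hmgn5 (14.2 ± 1.63), Hmgb3 (6.35 ± 0.473), Hmga2 (5.21 ± 1.36) and Hmga1 (4.01 ± 2.91, all SD, n = 3). The neighbours Hmgn2 and Hmgn3, Hmgn1 and Hmgb1, Hmgb3 and Hmga2, and Hmga2 and Hmga1 changed places between libraries and so were not ordered beyond their spread. In TAC the order was Hmgn2 (209.7 ± 41.6), Hmgn3 (92 ± 34.1), Hmgn1 (68.1 ± 5.09), Hmgb1 (61.3 ± 2.68), Hmgb2 (59.8 ± 16.2), Hmgb3 (30.2 ± 2.42), Hmgn5 (21.6 ± 13.1), Hmga1 (8.63 ± 5.35) and Hmga2 (3.85 ± 1.93). There Hmgn1 and Hmgb1, Hmgb1 and Hmgb2, and Hmgn5 and Hmga1 changed places between libraries.

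Several HMG genes have processed copies elsewhere in the genome that could share reads. Of the 75-base windows in the annotated transcripts of each gene, 46.9% for Hmga1 occurred exactly in another annotated gene. For Hmgn2 it was 20.6%, for Hmgb1 20.5%, for Hmgb2 and Hmgb3 17.5% each, for Hmgn5 15.8%, for Hmgn3 8.3%, for Hmgn1 2.67% and for Hmga2 1.18%. The table listed 10 further rows named after HMGA or HMGB genes, 9 of them processed pseudogenes. Hmgb1-rs16, one of these, had 3.73, 4.49 and 0.02 in MSC and 2.01, 1.56 and 0.00379 in TAC (log2 fold change -0.59, limma adjusted p = 0.849). It was close to its lowest possible value in replicate 3 of both groups. Gm6104, which shares most with Hmgb3, had 46, 27 and 0 estimated reads in MSC and 26, 40 and 1 in TAC. Gm10282, which shares 18.3% of the Hmgn2 windows, had a signal of 1.38, 2.56 and 7.53 in MSC and 6.12, 6.18 and 23 in TAC, and within each replicate number it was higher in TAC, as Hmgn2 was. How many of its reads, or of those of Hmgn2, belong to the other was not tested. The values of Hmga1 are the most uncertain in this respect. Hmgb1, Hmga1, Hmga2 and Hmgn3 also overlap genes on the opposite strand, whose reads cannot be told apart where counting ignores strand.

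Genes with the most similar pattern over the 6 libraries were named by Pearson correlation of log2(signal + 1) among 7863 genes. The points share their libraries and fall into 2 groups of 3, so these values are descriptions. For Hmgb3 they were Calr (0.9992), a chaperone of the endoplasmic reticulum, Spag5 (0.9989), a spindle protein, Stmn1 (0.9973), a regulator of microtubules, Rpl13a (0.9973), a ribosomal protein, and Impdh2 (0.9972), an enzyme of guanine nucleotide synthesis. Spag5 measured 7.36, 7.77 and 6.68 in MSC and 33.9, 35.1 and 33.9 in TAC, and Stmn1 34.6, 35 and 34.7 in MSC and 130.3, 131.0 and 122.0 in TAC. For Hmgn2 they were Trim28 (0.9994), H2afz (0.9982) and Dcakd (0.9980), for Hmgn1 Kpna2 (0.9985), Ran (0.9968) and Bambi (0.9962), for Hmgb1 Atp5b (0.9978), Rack1 (0.9973) and Ranbp1 (0.9959), and for Hmgb2 Atpif1 (0.9973), Hnrnpa3 (0.9949) and Hapln1 (0.9947). Kpna2, Ran and Ranbp1 act in nuclear transport, and H2afz codes for a histone variant. The nearest to Hmga1 was Ncoa4 (0.9982), to Hmga2 Cul5 (0.9969), to Hmgn3 Ewsr1 (0.9986) and to Hmgn5 Morf4l1 (0.9984), and in each of these TAC replicate 3 was the highest or the lowest of the 6 libraries.

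Genes that work with HMG proteins were read from the same fit. Of 16 genes of the SET complex and histone chaperones, all tested, none passed the adjusted threshold, while at an unadjusted p under 0.05 9 were higher in TAC (5.42% of all genes) and none in MSC. Their median log2 fold change was 1.31 (1.17 in replicates 1 and 2, 1.27 in replicate 3), and 10 had TAC libraries all above MSC libraries (12.3% of all genes). With the replicate block 3 passed as higher in TAC (0.604% of all genes), namely Set, which codes for an inhibitor of a phosphatase and partner of HMGB2 (log2 fold change 1.46, limma adjusted p = 0.104 and 0.0459 with the block), the histone chaperone Nasp (1.26, limma adjusted p = 0.114 and 0.0483) and Anp32b (1.14, limma adjusted p = 0.201 and 0.0442). Over the alternatives their adjusted p-values reached from 3.07e-07 (Anp32b) to 1 (all 3). Set measured 96.7, 83.1 and 61.7 in MSC and 213.0, 228.2 and 219.0 in TAC. Chaf1b, a subunit of the assembly factor that follows the replication fork, had the largest change of the list at 2.39 (limma adjusted p = 0.148), with 2.04 and 3.11 by library set.

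Linker histones compete with HMG proteins for nucleosomes. Of 8 listed, 7 were tested, none passed the adjusted threshold, and H1f0 alone was higher in TAC at an unadjusted p under 0.05, as 5.42% of all genes were (log2 fold change 1.00, limma adjusted p = 0.326). Their median was 1.29 over all libraries, 1.91 in replicates 1 and 2 and 0.24 in replicate 3. Hist1h1e, one of the linker histones made in S phase, measured 79.8, 81.4 and 0.00666 in MSC and 301.8, 311.1 and 0.0448 in TAC, so that it was near its lowest possible value in both replicate 3 libraries. Hist1h1b and Hist1h1d were at 0.00666 in MSC replicate 3 and at 0.00379 and 0.19 in TAC replicate 3.

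Other genes with an HMG box did not move as one. Of 15 relatives without sequence preference 14 were listed and 13 tested, none passed the adjusted threshold, and 2 were higher in TAC at an unadjusted p under 0.05 (5.42% of all genes). These were Ssrp1 (log2 fold change 0.82, limma adjusted p = 0.412), a subunit of the histone chaperone FACT, and Smarce1 (0.64, limma adjusted p = 0.375), a subunit of BAF chromatin remodelers. Of 19 sequence-specific HMG-box factors, all listed and 17 tested, none passed and 3 were higher in MSC at an unadjusted p under 0.05, as were 6.43% of all genes. With the block 0.884% of all genes passed as higher in MSC. Sox17, a factor of arterial endothelium among other tissues, measured 16.7, 17.6 and 51.8 in MSC and 1.82, 2.69 and 6.27 in TAC (log2 fold change -2.62, limma adjusted p = 0.15, 0.0459 with the block and 3.03e-05 to 0.933 over the alternatives). Sox10 (-2.14) marks Schwann cells, and Sox13 (-1.28) was the third. The medians were 0.44 for the relatives (0.23 and 0.81 by library set) and -0.31 for the factors (-0.47 and -0.37).

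Of 10 receptors and partners of extracellular HMGB1, 9 were listed and 8 tested, with a median log2 fold change of -0.74 (-0.85 and -0.47 by library set). Cxcl12, the chemokine with which released HMGB1 forms a complex, was the only one to pass and was higher in MSC, as 0.383% of all genes were at that threshold (log2 fold change -3.49, SE 0.29, limma adjusted p = 0.00876, 2.66e-08 to 0.0805 over the alternatives). It measured 125.4, 129.0 and 203.0 in MSC and 13, 12.3 and 11.6 in TAC. Thbd, which codes for thrombomodulin and binds HMGB1, was at 34.2, 38.8 and 107.4 in MSC and 5.47, 5.23 and 6.14 in TAC (log2 fold change -3.01, limma adjusted p = 0.0671, 0.0489 with the block and 1.86e-06 to 0.294 over the alternatives). Among receptor genes, Ager lay between 0.00666 and 5.77, Tlr2 between 3.56 and 10.9, Tlr4 between 0.00379 and 3.06, Tlr9 between 0.00379 and 2.74, and Cxcr4 between 0.438 and 14.3, the last in MSC replicate 3. Cd24a, which codes for a partner of HMGB1 on the cell surface, lay between 77.2 and 256.9. Summed markers of endothelium ran from 146.9 to 230.2 in MSC and from 69.7 to 87.5 in TAC, and 3 of the 6 were higher in MSC at an unadjusted p under 0.05 (6.43% of all genes). Smooth muscle and pericyte markers summed to 713.6 to 1392.2 in MSC and 71.1 to 100.6 in TAC, and 4 of 5 tested passed as higher in MSC, with Des near 0. With the block Acta2 no longer passed (limma adjusted p = 0.0455 and 0.0701 with the block) and Cspg4 did (0.179 and 0.0442). Over the alternatives the largest adjusted p-values of the 4 were 0.235 to 0.275. The part of these cells in the values of Cxcl12, Thbd and Sox17 was not tested.

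The let-7 and Hmga2 circuit was covered by 12 genes, of which 11 were listed and 7 tested. None passed the adjusted threshold, and the median log2 fold change was -0.24, with -0.19 in replicates 1 and 2 and 0.60 in replicate 3, so that its sign differed between the sets. At an unadjusted p under 0.05, where 5.42% of all genes were higher in TAC and 6.43% in MSC, Mycn was higher in TAC (log2 fold change 2.04, 1.56 and 2.99 by library set, limma adjusted p = 0.281), and Plag1 (-2.94, limma adjusted p = 0.114) and the RNA-binding gene Igf2bp2 (-2.16, limma adjusted p = 0.188) were higher in MSC. Both Plag1 and Igf2bp2 are known to be activated by HMGA2. Lin28a, which codes for the inhibitor of let-7 processing, stayed between 0.00379 and 0.288 in the 6 libraries.

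Cell cycle genes were set beside the HMG genes because several HMG genes are known to be high in dividing cells. Of 25 listed and tested, Cdk1 alone passed the adjusted threshold (log2 fold change 2.62, SE 0.35, limma adjusted p = 0.039, 5.05e-06 to 0.824 over the alternatives), 22 were higher in TAC at an unadjusted p under 0.05 and none in MSC. Of all genes, 0.039% passed as higher in TAC and 5.42% were higher at an unadjusted p under 0.05. The median was 1.89, with 2.10 in replicates 1 and 2 and 1.53 in replicate 3. With the block 5 passed, all higher in TAC (0.604% of all genes). Top2a measured 42.6, 39 and 27.5 in MSC and 240.4, 224.7 and 74.2 in TAC. TAC replicate 3 was the lowest TAC library for Top2a, as it was for Hmgb2, whereas Cdk1 was at 25.7, 29.2 and 30.9 in TAC and did not fall in replicate 3. The summed signal of the 25 genes was 326.5 to 443.2 in MSC and 815.4 to 1848.3 in TAC. The part of the number of dividing cells in the HMG values was not tested.

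**Figure D4:**
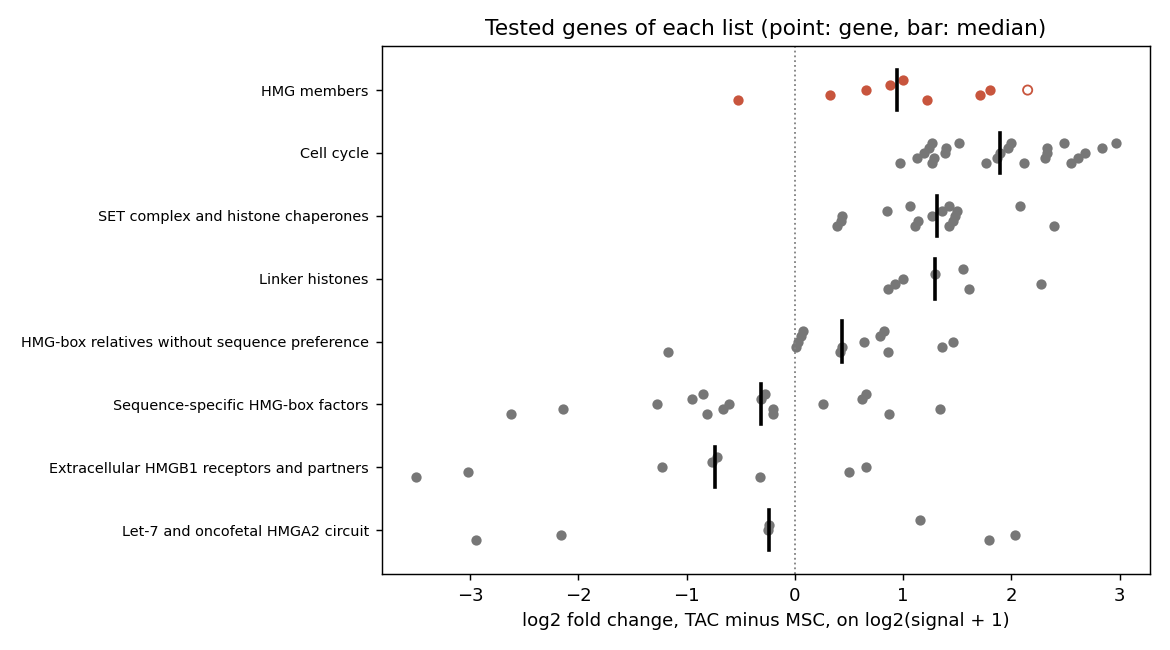
Log2 fold change (x axis, TAC minus MSC, on log2(signal + 1)) of each tested gene of the HMG genes (red, with Hmgb3 as an open circle) and of 7 gene lists (grey), with the median of each as a black bar that leaves out Hmgb3. Medians are 0.94 for the HMG genes, 1.89 for the cell cycle, 1.31 for the SET complex and histone chaperones, 1.29 for linker histones and -0.31 for sequence-specific HMG-box factors.

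Markers of other cells also differed between the libraries. Dental epithelium markers summed to 299.7 to 3658.0 in MSC and 2149.0 to 3338.4 in TAC, and for 4 of 8 every TAC library was above every MSC library (12.3% of all genes). Odontoblast markers summed to 531.5 to 5119.2 in MSC and 3284.4 to 4623.3 in TAC, with the groups overlapping. In both lists the low end in MSC was replicate 3. There Amelx was 80.6 (2502.9 and 2492.0 in MSC replicates 1 and 2) and Dspp 476.1 (4908.6 and 4763.3). Sums for macrophages and leukocytes were 72.3 to 157.0 in MSC and 38.9 to 88.9 in TAC, for Schwann cells 19.1 to 43.2 and 5.87 to 19.2, and for erythroid genes 37.2 to 72.3 and 56.3 to 68.2. How far these cells added to the HMG signal was not tested.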

How the data were processed

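Laser-captured MSC and TAC regions (3 libraries each) were sequenced as single-end reads. Per the methods and the submitters' processing notes, which name CASAVA 1.8.2, TopHat2 2.0.8 and Partek, reads were trimmed, aligned to mm10 and normalized as RPKM. The table did not behave as RPKM. It held a signal that the authors made from estimated reads, with 1 added to each and the sum scaled by 1 factor per library, and with gene length not divided out, so the planned log-scale test was kept. How reads were counted, and whether by strand, is not given in the sources used here. Estimated reads were the value over the lowest of its library, minus 1. Of values worth 0.5 to 30 such reads, 66.2% to 75.6% were whole within 0.05, so no count model was the main test.

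In R 4.3.3, limma 3.58.1 (empirical Bayes with trend) was fitted to log2(signal + 1) of the 15391 genes whose mean reached 1, two-sided, with Benjamini-Hochberg adjustment over all of them and 0.05 as the threshold. The pseudocount understates changes of low genes. The difference between library sets was the interaction of group and set (replicates 1 and 2 against replicate 3). Levels per kb used the longest principal transcript in GENCODE M21. Coordinates are those of the table, with the end lowered by 1. The fit was also run on simulated data in which all libraries had the same spread. Because replicate 3 stands apart in the real libraries, that run does not show how the fit behaves on them.

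The methods speak of pairs of samples. Deviations of same-numbered libraries from their group means correlated at 0.4765, 0.4655 and 0.5171, but MSC replicate 1 with TAC replicate 2 gave 0.4616, so the numbers chiefly separate replicate 3. Fits with the number as a block, other pseudocounts, filters, scalings and variance models, and fewer libraries were the alternatives. The HMG genes, the lists and the tests were chosen with earlier results of these data known. Genes named besides the HMG genes were further HMG rows, list members past the threshold or with the largest changes, and the nearest genes by correlation (mean of at least 10, no predicted genes). List genes named only for an unadjusted p, for the block or to show their level were chosen after their values were seen. One further row is not reported here.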

Additional observations from a re-analysis of the deposited data

Results flagged for a closer look

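For 6 HMG genes the TAC minus MSC change differed between the library sets in a fit of the difference (group by set interaction in limma, log2 scale, replicate 3 minus replicates 1 and 2). The difference was -0.92 for Hmgb2, 3.77 for Hmga1, -2.03 for Hmga2, -0.54 for Hmgn1, 0.75 for Hmgn3 and -2.34 for Hmgn5. Of all genes tested, 57.2% had such a difference, and with 1 replicate 3 library per group the error is the spread between replicates 1 and 2 only, so that these calls do not show how far a further library would vary. For Hmgb1 (-0.14) and Hmgn2 (-0.05) it was not called.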

How the results depend on the processing

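The number of all genes called was 65 (6 higher in TAC, 59 in MSC). It was 38 with a pseudocount of 0.1, 114 with quantile normalization (27 higher in TAC, 87 in MSC), 29 with no variance trend, 23 with voom, 229 with the replicate block (93 and 136), 1814 with the library set as a batch term (804 and 1010), 6796 with replicates 1 and 2 only (3079 and 3717) and 10 with these averaged, and 0 to 292 when 1 library was left out. It was 292 without MSC replicate 3, 36 without TAC replicate 3 and 0 without any of the others, where 1028 to 1367 genes had an unadjusted p under 0.05. All genes called were higher in MSC with no variance trend, with voom and with replicates 1 and 2 averaged. Of the 8 HMG genes besides Hmgb3 none was called. With quantile normalization 1 was (Hmgb2), with the replicate block 1 (Hmgn2) and with the batch term 4 (Hmgb1, Hmgb2, Hmgn1 and Hmgn2). With replicates 1 and 2 only 6 were called, and with these averaged 0. With 1 library left out 0 to 1 were called (Hmgn2 without MSC replicate 3, Hmgb2 without TAC replicate 3). The block changed no other call of an HMG gene besides Hmgb3. With replicates 1 and 2 only, the log2 fold change turned to -0.04 for Hmga1 and 0.15 for Hmga2. Without MSC replicate 3 it was 0.41 for Hmga1 (1.22 over all libraries). Without TAC replicate 3 it was -0.04 for Hmga2 (-0.53 over all libraries) and 0.37 for Hmgn3 (0.65 over all libraries). For Hmgn5 it turned to -1.24 with replicate 3 only, to -0.07 with replicates 1 and 2 averaged and to -0.06 without TAC replicate 2, within -0.06 to 1.01 over the libraries left out. Changes of Hmgb1, Hmgb2, Hmgn1, Hmgn2 and Hmgn3 kept their direction under every alternative run. The cause of these changes was not tested. The lowest HMG value rested on 193 estimated reads.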
